A study of Solanum lycopersicum with 6 samples.

Results

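In epicotyls of tomato (Solanum lycopersicum) seedlings, 87 genes were detected on every array of the negative DIF treatment and on no array of the positive DIF treatment. DIF is the day temperature minus the night temperature. The genes were taken from an array that measured 34527 tomato genes, of which they made up 0.252%. The genes were chosen by the detection marks of the arrays. A gene was included when a probe carrying its tomato identifier was marked well above background by the scanner software on all 3 negative DIF arrays and on 0 of 3 positive DIF arrays, and when no other probe of the gene was so marked on a positive DIF array. The 87 genes were represented by 95 probes. Because these marks chose the genes, the difference between treatments is described for them and not tested.

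The seedlings were of the cultivar Managua RZ. Seeds were imbibed for 2 d at 28°C in the dark and the seedlings were grown at 23°C by day and night for 5 d before the treatments. Negative DIF seedlings were then kept for 7 d at 25°C by day and 30°C by night, and positive DIF seedlings at 30°C by day and 25°C by night, both with a 16 h photoperiod at the same light intensity. At an age of 14 d the epicotyl, the stem above the cotyledons, was taken from both treatments. The growth scheme places the harvest in the light period, so negative DIF seedlings were at 25°C and positive DIF seedlings at 30°C at that moment. Total RNA from 3 biological replicates per treatment was labelled with a single dye and hybridised to 1 array each. Whether a replicate pooled several seedlings is not given in the sources used here.

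Stem length responds to the order of warm and cool periods within a day, and growers use a cooler day than night to obtain compact seedlings. In Arabidopsis, warmth acts on stem growth largely through the transcription factor PIF4 and through gibberellin and auxin. The genes described here were not chosen for any of these pathways. An array probe reports the transcript of 1 gene as the brightness of a spot, and a spot counts as detected when it is clearly brighter than its surroundings. In RNA from a whole organ, fewer cells that carry a transcript and less of it per cell cannot be told apart.

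The arrays were alike in the share of probes detected and less alike in brightness. Of 43803 probes, the share well above background was 62.2% to 67.0% per array under negative DIF and 62.6% to 65.4% under positive DIF. The 75th percentile of the processed signal, the spot brightness after background subtraction, lay between 1572 and 2417 on negative DIF arrays and between 1475 and 1553 on positive DIF arrays. All 3 negative DIF arrays were thus brighter than all 3 positive DIF arrays by this percentile, and the detection marks were set before any scaling. To compare arrays, the log2 processed signal was expressed relative to this percentile, and is called the scaled signal below. Negative DIF replicates 1 and 2 were on 1 slide, and negative DIF replicate 3 and all 3 positive DIF arrays on the other. Markers of green shoots were read beside the epicotyl label, though they cannot tell the epicotyl from other green organs. Of 3 Rubisco small subunit genes, Solyc02g063150 had processed signals of 94098 to 122244 under negative DIF and 57625 to 106656 under positive DIF, and Solyc03g034220 had 142775 to 202642 under negative DIF and 69062 to 137050 under positive DIF. The other, Solyc02g085950, was also detected on all 6 arrays, at 291 to 560 under negative DIF and 71.4 to 247 under positive DIF. The expansin gene SlEXP1, whose product loosens cell walls, had 2423 to 3260 under negative DIF and 4923 to 7588 under positive DIF by the arrays' sample titles. A seed storage protein gene, the vicilin Solyc06g075280, was read as a marker of another organ. It was also detected on all 6 arrays, at 344 to 462 under negative DIF and 44.3 to 134 under positive DIF.

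The detection pattern was uncommon in either direction. Among 42569 probes with a tomato gene identifier, 119 (0.280%) were well above background on all negative and no positive DIF arrays, and 24 of these, from 24 genes, were left out because another probe of the gene was detected under positive DIF. The mirrored pattern was met by 153 probes (0.359%), of which 135 probes of 124 genes remained after the same exclusion. By comparison, 24390 probes with an identifier were detected on all 6 arrays and 11778 on none. The members' share can only be read against these counts, since the pattern is the rule itself.

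All of the members were dim. Over the 95 probes, the processed signal had a median of 58.8, 46.8 and 33.8 on negative DIF replicates 1, 2 and 3, against 9.05, 7.39 and 6.96 on positive DIF replicates 1, 2 and 3. Under negative DIF it ranged between 19.6 and 381, and under positive DIF between 2.44 and 19.6. For scale, the 26141 probes detected on all 3 negative DIF arrays had medians of 1626, 1269 and 1059 there. Ranked among those probes by mean scaled signal under negative DIF, the members stood between the 0.0421 and the 20.3 percentile, with a median at 3.17. Spot brightness depends on the probe as well as on the transcript, so these ranks describe spots and do not order genes by transcript level.

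**Figure D1:**
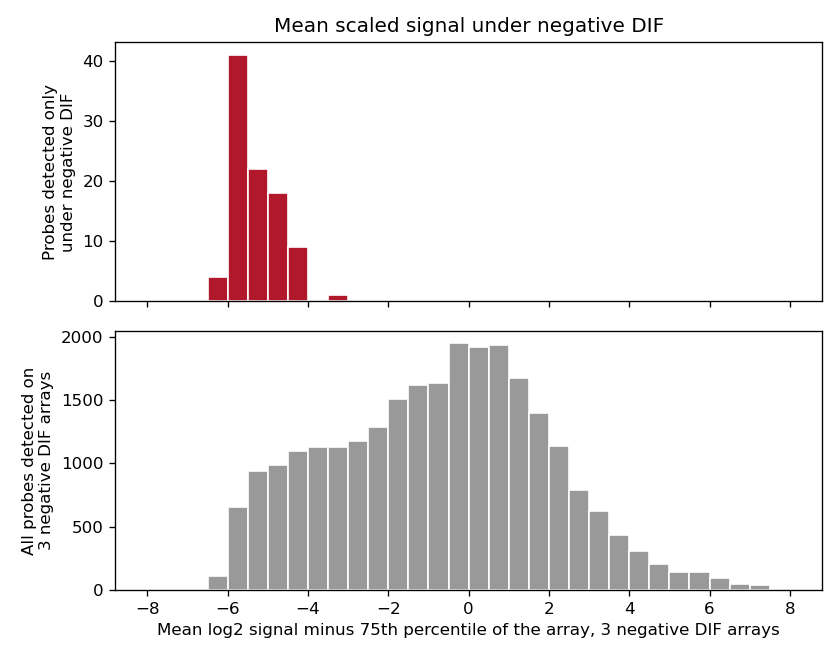
Mean scaled signal (log2 processed signal minus the 75th percentile of the array) over the 3 negative DIF arrays, as the number of probes per bin, for the 95 probes detected only under negative DIF (upper panel) and for all 26141 probes detected on the 3 negative DIF arrays (lower panel). The 95 probes lie between -6.29 and -3.33, with a median of -5.46, against a median of -0.57 for all detected probes.

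The software sets its marks spot by spot, and some members lay close to the limit. The lowest processed signal that was well above background was 18.5, 22.4 and 18.5 on negative DIF replicates 1, 2 and 3 and 15.4, 16.6 and 12.2 on positive DIF replicates 1, 2 and 3. The dimmest members on those negative DIF arrays had 20.1, 25.2 and 19.6, just above it. Under positive DIF, Solyc05g051910 reached 19.6 on replicate 2 without being marked, above the lowest marked signal of that array. Every negative DIF scaled signal exceeded the lowest marked scaled signal of each positive DIF array for 88 of the 95 probes. A second, more lenient mark of the software, a signal that is positive and significantly different from its background, was also set on all 3 positive DIF arrays for 44 of the 95 probes, on 2 for 31, on 1 for 12 and on 0 for 8. Detected only under negative DIF thus means well above background there, and does not mean that the transcript was absent under positive DIF. When the lenient mark replaced the stricter one in the rule, 55 genes met it and 6 of them were among the 87: Solyc01g094110, Solyc01g110180, Solyc05g015660, Solyc07g061760, Solyc10g024490 and Solyc11g064820.

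Because no positive DIF signal of a member probe was marked well above background, the difference is given as an at-least fold. This is the mean scaled signal of the 3 negative DIF arrays against the mean, over the 3 positive DIF arrays, of the higher of the probe's own value and the lowest value well above background on that array. The words at least cover the positive DIF side alone. The negative DIF mean and the scaling are estimates, so an at-least fold can be lower with other processing or fewer arrays. The at-least fold ranged between 1.30 and 10.2 over the 95 probes with a median of 2.33, and was 2 or more for 73 probes of 66 genes and 4 or more for 16 probes of 15 genes. The 135 probes of the mirrored pattern had a median at-least fold of 2.51 and a range between 1.12 and 53.7, and 8 of them reached 10, against 1 of the 95. These values come from the contrast that chose both sets and were not tested. As scaled signals, all 3 negative DIF arrays lay above all 3 positive DIF arrays for 93 of 95 probes, where 14.6% of all 43803 probes did so. The exceptions were Solyc05g051910 and Solyc04g047820.

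**Figure D2:**
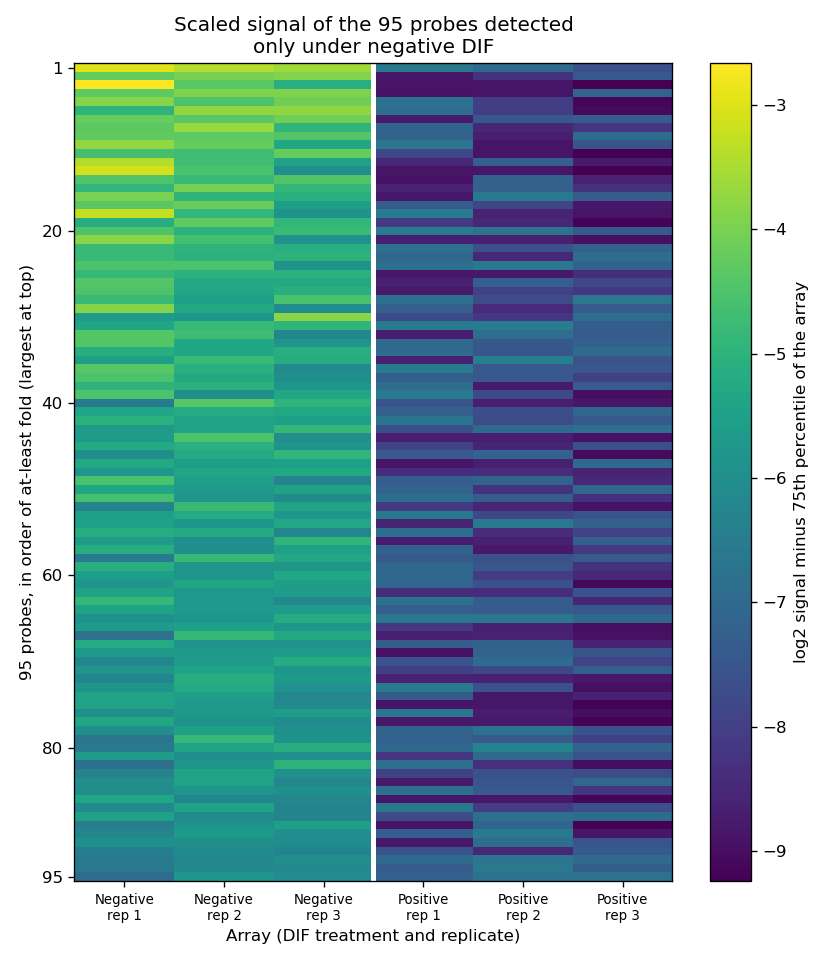
Scaled signal of the 95 probes (rows, in order of at-least fold) on the 3 negative DIF arrays (left of the white line) and the 3 positive DIF arrays (right of it); the colour gives log2 processed signal minus the 75th percentile of the array. The at-least fold runs between 10.2 at the top and 1.30 at the bottom, and 93 of the 95 rows have all 3 negative DIF values above all 3 positive DIF values.

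A description was at hand for 13 of the 87 genes. The descriptions came from the study's lists of the genes that changed most, which were drawn up on these same arrays, and all 13 were on the list for the negative DIF direction, so their direction there is not independent evidence. Of the 15 genes with the largest at-least fold, 12 had a description. The other 74 genes are given by identifier only. The first 2 digits of an identifier give the chromosome, with 00 for sequence not placed on one.

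Solyc01g007080, described as an aluminum-activated malate transporter, a family of anion channels in plant membranes, had processed signals of 307, 179 and 128 under negative DIF, against 15.2, 12.4 and 7.38 under positive DIF. It was at least 10.2-fold higher under negative DIF, the largest value among the 87 genes. As scaled signals it averaged -3.33 ± 0.32 under negative DIF and -7.07 ± 0.53 under positive DIF (SD, n = 3 each). Solyc09g098380, an amino acid transporter of the membrane, had 99.9, 72.9 and 84.8 under negative DIF and 6.46, 3.35 and 2.45 under positive DIF. Its replicates lay close together and it was at least 4.54-fold higher. Of 24 described genes on the list of transporters and aquaporins, 15 were on the study's list for the negative DIF direction, and these were the 2 members. Of all 600 described genes, 13 were members.

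Solyc07g054870, a 2-oxoglutarate- and iron-dependent oxygenase, belongs to a large family that oxidises hormones and secondary metabolites. Its spots had processed signals of 166, 83.9 and 92.9 under negative DIF and 13.4, 6.02 and 2.62 under positive DIF, at least 5.81-fold higher. Solyc10g079570, an acyltransferase, had 120, 148 and 51.4 under negative DIF, against 10.7, 4.22 and 4.89 under positive DIF, at least 5.17-fold higher. The lowest negative DIF value of either enzyme was well over its highest positive DIF value, a separation that the rule all but fixes.

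Solyc02g067870 was described as a chalcone isomerase. Chalcone isomerases catalyse an early step of flavonoid synthesis, but the Arabidopsis counterpart listed for this gene, FAP1, is known there as a fatty-acid-binding protein of the same fold without that activity. Its spots had processed signals of 77.0, 140 and 116 under negative DIF and 12.6, 5.90 and 2.73 under positive DIF. Its signal was lowest on negative DIF replicate 1, and all 3 negative DIF values stood apart from the positive DIF ones, as the rule all but requires. The at-least fold was 5.74.

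A single member was a seed storage protein by description. Solyc01g094110, a legumin 11S globulin of the cupin superfamily, had 381, 93.5 and 46.1 under negative DIF, against 3.10, 3.34 and 2.44 under positive DIF. It had the highest processed signal of any member on any array, on negative DIF replicate 1. The negative DIF replicates spanned a 5.36-fold range as scaled signals, wider than in all but 2 of the members, and the at-least fold was 6.28. Without negative DIF replicate 1 it was 3.91. The vicilin gene Solyc06g075280, another seed storage protein, was detected on all 6 arrays and is no member, with 369, 462 and 344 under negative DIF and 134, 44.3 and 48.8 under positive DIF.

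In a further group the negative DIF replicates lay close together. Solyc03g083170, whose listed Arabidopsis counterpart DMS3 acts in RNA-directed DNA methylation, had 108, 67.8 and 71.5 under negative DIF and 3.06, 10.4 and 3.74 under positive DIF, at least 4.30-fold higher. Solyc04g039720, with a GRF-type zinc finger, had 123, 124 and 102 under negative DIF, against 3.07, 3.33 and 10.8 under positive DIF, at least 6.17-fold higher. Solyc00g195360, described as a long-form homolog of serine/threonine-protein phosphatase 7 with a plant mobile domain, was measured by a pair of probes, both of them members. The first probe had 132, 91.9 and 91.4 under negative DIF and 3.38, 9.03 and 9.07 under positive DIF, and the second 124, 96.6 and 72.6 under negative DIF and 10.5, 3.79 and 12.2 under positive DIF. The at-least fold was 5.505 and 5.084, and the standard deviation over the negative DIF replicates was 0.13 and 0.09 on the scaled log2 signal.

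The rest of the described members varied more. Solyc01g080800, a plant basic secretory protein of a family released from cells, had 183, 102 and 39.3 under negative DIF and 14.6, 3.35 and 8.03 under positive DIF, at least 4.81-fold higher. Solyc09g014550, a major latex-like protein of the Bet v I family of small ligand-binding proteins, had 68.1, 97.6 and 53.05 under negative DIF, against 5.28, 4.29 and 2.54 under positive DIF, at least 3.76-fold higher; it stands below the 15 largest and was named because it has a description. Solyc07g061760, an ankyrin repeat protein, is taken up with its neighbour. None of the 30 described genes on the list of defence proteins (chitinases, glucanases, thaumatin- and pathogenesis-related proteins) was a member. Of those 30, 22 were on the study's list for the negative DIF direction.

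Over the 20 families searched by description, 6 had a member gene and none had 3. Cytochrome P450 genes (12 described, 8 of them on the list for the negative DIF direction) had none. Neither had receptor and protein kinases (11 of 29 on that list), cell wall proteins (7 of 17), heat shock proteins (1 of 10) or hormone genes (2 of 16). Of all 600 described genes 13 were members, and all 13 were on that list. Genes on the opposite list could hardly meet the rule, so these counts were partly fixed beforehand. Only the 600 described genes of the study's lists could be placed in a family, so these counts say nothing of the 74 members without a description.

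Among the brightest members without an annotated function, Solyc12g041920, listed as an unknown protein, was the most even. Its spots had processed signals of 130, 118 and 107 under negative DIF, against 3.15, 4.98 and 8.51 under positive DIF, at least 6.29-fold higher. Solyc08g080430 had 225, 74.5 and 35.8 under negative DIF and 4.08, 10.4 and 3.42 under positive DIF, at least 4.49-fold higher. Solyc04g014640 had 153, 60.5 and 46.9 under negative DIF and 3.28, 16.2 and 9.09 under positive DIF, at least 4.03-fold higher. In both of these the first negative DIF replicate stood well above the others.

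**Figure D3:**
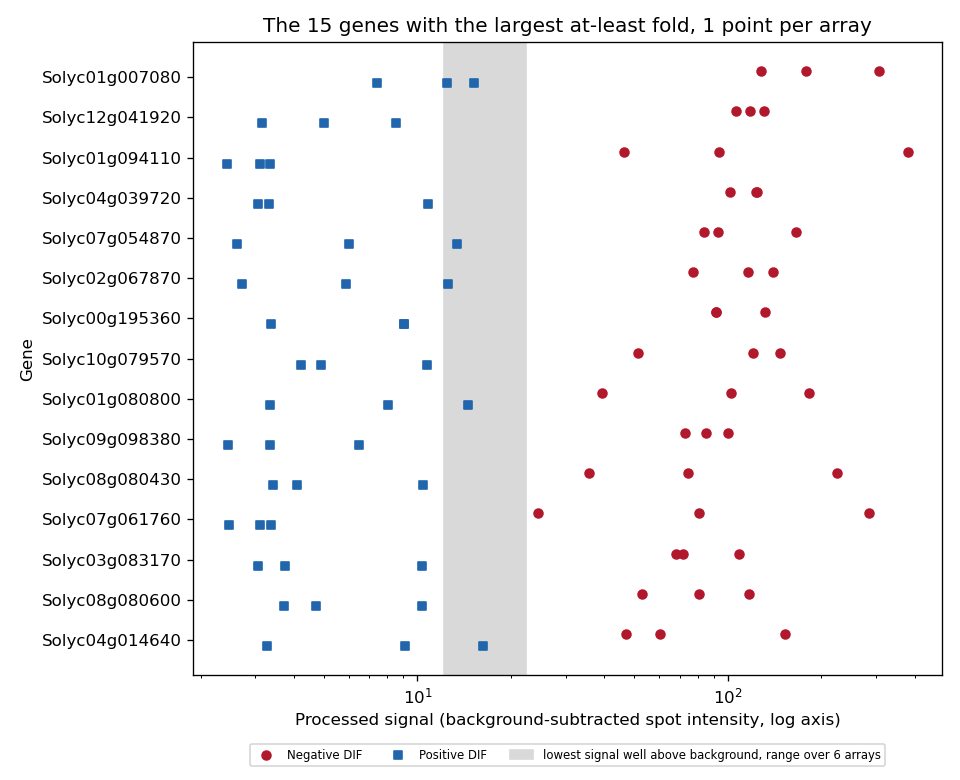
Processed signal on a log axis for the 15 genes with the largest at-least fold, with 1 red circle per negative DIF array and 1 blue square per positive DIF array; the grey band spans the lowest signal well above background over the 6 arrays, 12.2 to 22.4. All negative DIF values lie to the right of the band, between 24.4 and 381, and the replicates of Solyc01g094110 and Solyc07g061760 are spread most widely.

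At the other end, 3 genes only just met the rule. Solyc04g047820 had processed signals of 20.1, 34.4 and 23.3 under negative DIF and 10.07, 14.4 and 13.5 under positive DIF, at least 1.30-fold higher, and its treatments overlapped as scaled signals. Solyc12g014580 had 25.4, 25.7 and 23.1 under negative DIF, against 9.05, 16.1 and 9.36 under positive DIF, at least 1.32-fold higher. Solyc08g044390 had 25.3, 25.3 and 25.1 under negative DIF and 11.7, 15.3 and 11.7 under positive DIF, at least 1.34-fold higher. Just outside the rule, 345 probes with an identifier missed it by 1 negative DIF array and 247 by 1 positive DIF array. A second probe of Solyc06g005770 missed it by 1 negative DIF array, with 18.6, 40.5 and 25.5 under negative DIF and 11.2, 18.8 and 3.64 under positive DIF, while the member probe of that gene had 32.1, 37.7 and 24.4 under negative DIF and 9.61, 16.5 and 3.23 under positive DIF.

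The standard deviation of the scaled signal over the 3 negative DIF arrays had a median of 0.42 over the 95 probes (range 0.05 to 1.46), against 0.20 over all 26141 probes detected there and 0.35 over the 5201 other detected probes within the members' range of mean signal. The members lay mostly in the dimmer part of that range, and the difference was not tested. Replicate 1 gave the highest scaled signal for 44 of the 95 probes, replicate 2 for 29 and replicate 3 for 22. Over all detected probes, replicate 1 was highest for 39.1%, replicate 2 for 30.5% and replicate 3 for 30.4%. For 7 probes the negative DIF replicates spanned more than a 4-fold range, and in 6 of these replicate 1 was highest and replicate 3 lowest. These were Solyc07g061760 (7.57-fold), Solyc07g061750 (5.96-fold), Solyc01g094110, Solyc06g034140 (4.40-fold), Solyc10g024490 (4.22-fold) and Solyc08g080430 (4.09-fold), while Solyc12g099610 (4.46-fold) was highest on replicate 2 and lowest on replicate 1. At the even end, 33 probes spanned less than a 1.5-fold range.

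Part of the comparison could be made within a slide. On the slide that held both treatments, negative DIF replicate 3 exceeded the mean of the 3 positive DIF arrays by a median of 2.31 on the log2 scale over the 95 probes (range 0.83 to 4.43), where the median over all probes was 0.11. The rule read the marks of these same arrays, so a gap for the members was all but fixed. A dependence on the slide was not tested by it. The fit with all 6 arrays gave a median difference of 2.39 for the members and 0.07 for all probes. The at-least fold from replicate 3 alone was 2 or more for 55 probes and under 1 for 0. It was 1.60 for Solyc07g061760, 3.02 for Solyc01g094110, 1.75 for Solyc07g061750, 2.34 for Solyc08g080430, 2.57 for Solyc01g080800, 3.37 for Solyc10g079570 and 1.86 for Solyc06g066110, the 7 named genes for which it was lower than the value from 3 replicates by over 1.5 times. It was 8.40 for Solyc01g007080, 6.98 for Solyc12g041920 and 7.63 for Solyc02g067870. The slides and the negative DIF replicates cannot be told apart.

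In a fit across all 43803 probes with limma and Benjamini-Hochberg adjustment, 32 of the 95 probes, from 30 genes, were past an adjusted p of 0.05 and higher under negative DIF, where 0.425% of all probes were. At an unadjusted p of 0.05, 94 were, where 10.2% of all probes were. The rule read the same contrast, so nothing is drawn from these counts. The 32 became 0 without negative DIF replicate 1 or 2, 9 without positive DIF replicate 1 and 1 without positive DIF replicate 2 or 3.

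Some members lay near another member. Among the 87 genes, gene numbers at most 30 apart on the same chromosome occurred in 2 places. On chromosome 7, Solyc07g061750 had processed signals of 248, 64.6 and 27.1 under negative DIF, against 16.1, 3.94 and 3.09 under positive DIF, at least 3.97-fold higher. The adjacent Solyc07g061760, whose ankyrin repeats are a fold that binds other proteins, had 284, 80.9 and 24.4 under negative DIF and 3.11, 3.37 and 2.46 under positive DIF, at least 4.40-fold higher. In both, negative DIF replicate 1 was the highest and replicate 3 the lowest. Without negative DIF replicate 1 their at-least folds were 2.45 for Solyc07g061750 and 2.65 for Solyc07g061760, and without negative DIF replicate 3 they were 5.99 and 7.29. Of the next genes on either side, Solyc07g061740 was detected on all 6 arrays and Solyc07g061770 on none.

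On chromosome 1, Solyc01g088260 had 113, 49.3 and 41.2 under negative DIF and 3.63, 10.004 and 6.505 under positive DIF, at least 3.26-fold higher. Solyc01g088280 had 107, 45.5 and 46.2 under negative DIF, against 3.37, 6.21 and 5.00 under positive DIF, at least 3.24-fold higher. Solyc01g088270, between them, missed the rule, being well above background on 1 negative DIF array, with 31.6, 12.3 and 13.7 under negative DIF and 3.81, 4.10 and 3.14 under positive DIF. Solyc01g088290, the next gene, was detected on 2 negative DIF arrays, with 48.8, 33.6 and 8.28 under negative DIF and 3.27, 3.50 and 3.03 under positive DIF. Solyc01g088300 was far brighter and was detected on all arrays, at 1538, 1589 and 1612 under negative DIF, against 215, 920 and 76.9 under positive DIF. From Solyc01g088260 to Solyc01g088300, all 5 consecutive genes had every negative DIF processed signal above every positive DIF one. The same held as scaled signals, as it did for 14.6% of all probes. For the 2 members the rule all but fixes this, and the stretch was drawn after the values were seen. The run was therefore not tested against that share. Whether the probes of these genes share sequence was not examined.

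Solyc08g080600 lies on chromosome 8 next to genes for osmotin-like proteins, members of the thaumatin family that accumulate in stress and defence. Its member probe had 80.8, 117 and 52.9 under negative DIF and 3.70, 10.3 and 4.72 under positive DIF, at least 4.23-fold higher. A second probe of the gene was well above background on 0 of 6 arrays, with 7.57, 18.7 and 3.77 under negative DIF and 3.16, 3.38 and 2.52 under positive DIF, so the 2 probes disagree. Its neighbour Solyc08g080610, an osmotin-like gene detected on all arrays, had 290, 1039 and 747 under negative DIF with its first probe, against 16.6, 131 and 26.7 under positive DIF. Whether the probes of Solyc08g080600 and of its osmotin-like neighbours share sequence was not tested, and its value is uncertain to that extent.

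**Figure D4:**
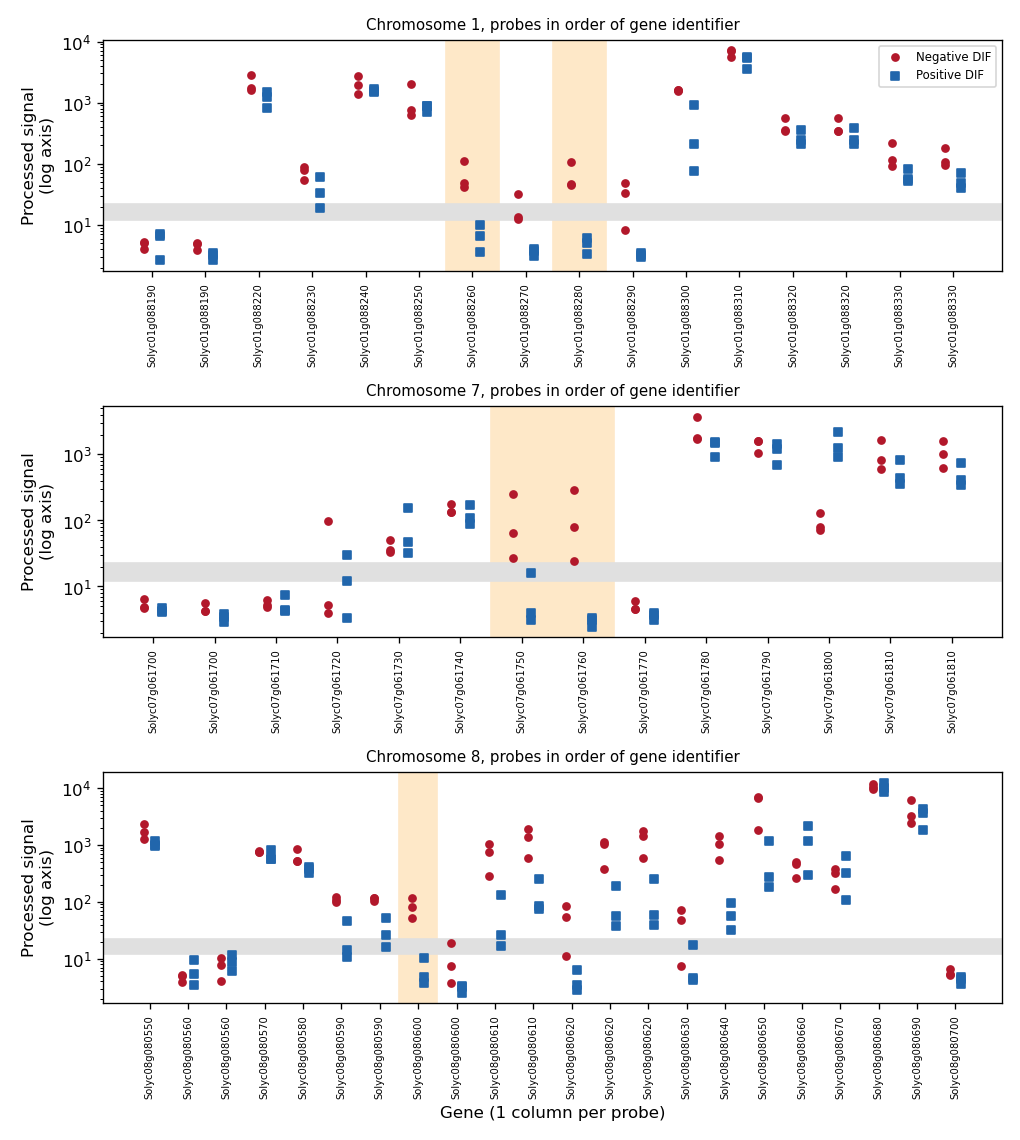
Processed signal (log axis) of the probes around 3 places on chromosomes 1, 7 and 8, in order of gene identifier, with 1 red circle per negative DIF array and 1 blue square per positive DIF array; orange columns mark the member probes and the grey band the lowest signal well above background over the 6 arrays, 12.2 to 22.4. Both members on chromosome 7 and both on chromosome 1 stand above the band under negative DIF only, and most genes around them are detected under both treatments or under neither.

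The genes directly beside a member, at most 10 gene numbers away and themselves no members, numbered 167 with 201 probes. Of these probes, 53.7% were detected on all 6 arrays and 27.4% on none, where 57.3% and 27.7% of all probes with an identifier were. Their median fitted difference was 0.12 on the log2 scale. Member genes were found on all 12 chromosomes, between 0.143% of the array's genes on chromosome 6 (4 of 2803) and 0.404% on chromosome 7 (10 of 2477), and 1 of 880 genes not placed on a chromosome was a member.

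Where a gene had several probes they could be set against each other. Of the 87 genes, 69 had a single probe and 18 had several. In 8 genes a pair of probes met the rule. Their at-least folds lay side by side, for instance 2.85 and 2.72 in Solyc06g066110 and 2.27 and 2.08 in Solyc03g005510, and in both of these genes the 2 probes were highest on the same replicate. Those of Solyc06g066110 had 113, 48.0 and 28.3 and 105, 49.9 and 25.2 under negative DIF, against 11.7, 8.97 and 9.79 and 9.55, 8.87 and 5.77 under positive DIF. Replicate 1 was the highest and replicate 3 the lowest with both probes. Those of Solyc03g005510 had 31.1, 67.5 and 37.0 and 22.004, 64.8 and 41.5 under negative DIF, against 5.35, 4.10 and 3.04 and 3.68, 3.91 and 3.02 under positive DIF, and replicate 2 was the highest with both. As scaled signals, the highest replicate was the same with both probes in 3 of the 8 genes, Solyc04g014840 being the other, and differed in 5.

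Solyc01g105840, another gene with a pair of member probes, had 86.0, 42.0 and 67.2 with its first probe and 109, 58.4 and 58.2 with its second under negative DIF, and at most 16.3 with either under positive DIF, at least 3.76-fold higher by the second probe. Solyc03g005240 was at least 2.68-fold, Solyc07g016190 at least 2.52-fold and Solyc04g024630 at least 2.33-fold higher by the probe with the larger value, and the other probes gave 2.26, 2.16 and 2.08 in the same order. In the other 10 genes with several probes, 11 probes did not meet the rule. Of these, 7 were well above background on 0 negative DIF arrays, 1 on 1 and 3 on 2. For Solyc04g014640, the second probe had 19.6, 7.50 and 4.004 under negative DIF and 3.31, 3.55 and 3.22 under positive DIF, and was well above background on none of the arrays. No part of a transcript could be assigned to a probe here, so probes that disagree are left as such.

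**Figure D5:**
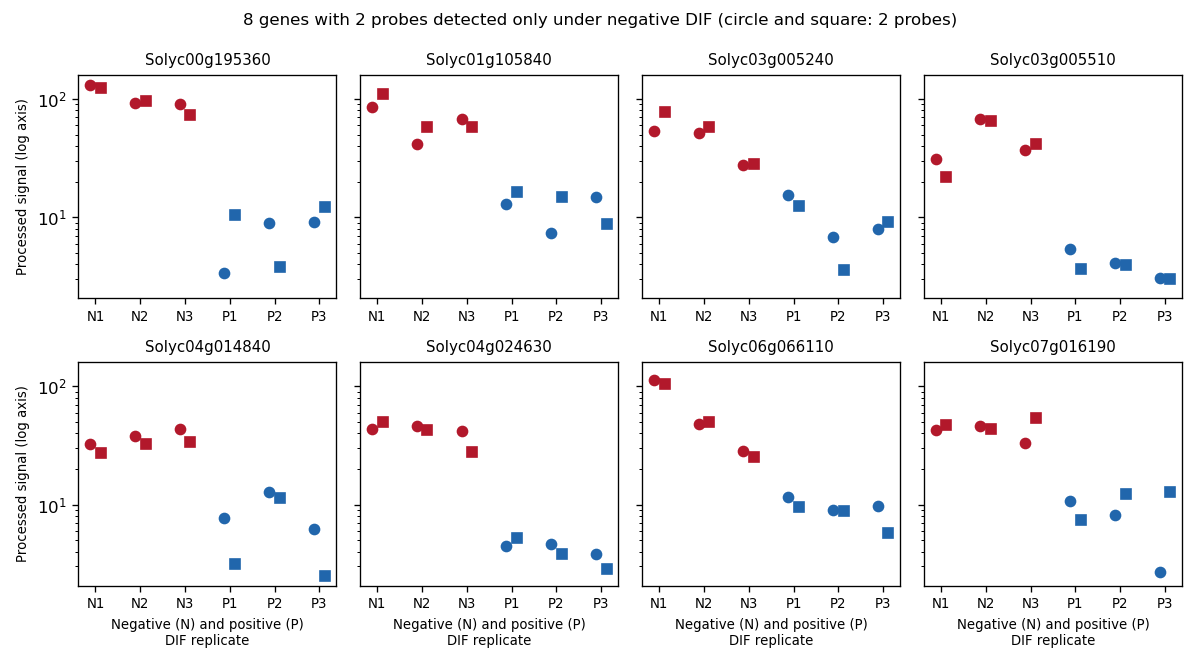
Processed signal (log axis) of the 8 genes for which a pair of probes was detected only under negative DIF, on negative DIF replicates 1 to 3 (N1 to N3, red) and positive DIF replicates 1 to 3 (P1 to P3, blue), with circles for 1 probe and squares for the other. Every negative DIF point of a gene lies above every positive DIF point, and the highest replicate is replicate 1 with both probes of Solyc06g066110 and replicate 2 with both of Solyc03g005510.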

How the data were processed

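Epicotyl RNA was measured on 6 one-colour arrays, 3 per treatment, grouped by sample title. The authors scanned the arrays and deposited, per array, the Feature Extraction (10.10.1.1) output with spot intensity values, corrected for background on each array but not scaled across arrays, and detection flags. The authors also deposited a log2 table, which was not used, because each column has the rank order of an array of the treatment opposite to its heading; the scanner files' sample titles were followed.

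Control spots and spots marked non-uniform were left out, and log2 processed signals were taken minus each array's 75th percentile, with no filter on dim probes. Treatments were compared with limma 3.58.1 in R 4.3.3 over 43803 probes, with treatment as the only term. The fit was also run on simulated data with independent normal noise and no slide effect. That run does not cover the slide layout of these arrays. The number of arrays limits the precision. Tables and plots were made with Python.

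The genes, the families and the alternatives were chosen with earlier results of these data known. Genes named are the 15 with the largest at-least fold, up to 6 with a pair of member probes, the 3 with the smallest at-least fold and those whose gene numbers lie at most 30 apart. Solyc09g014550, Solyc03g005510, Solyc06g005770 and the genes listed for overlap, replicate spread and the lenient mark were named after their values were seen. Probes were named by the identifiers in the scanner files. Descriptions came from the study's lists. The RefSeq gene table matched none of the identifiers, so promoter motifs were not searched. Alternatives were quantile normalization, normexp correction with an offset of 50 on median signals, a filter on dim probes, eBayes with trend and robust, slide or replicate number as a block, leaving out single arrays, and other detection rules.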

Additional observations from a re-analysis of the deposited data

Results flagged for a closer look

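Of the 1234 array probes without a tomato gene identifier, which the rule leaves out, 2 were well above background on all 3 negative DIF arrays and on 0 of 3 positive DIF arrays. TowgeN_I_47188 had processed signals of 66.2, 62.6 and 31.998 under negative DIF and 10.989, 4.63 and 13.6 under positive DIF, at least 2.62-fold higher. TowgeN_I_14294 had 39.6, 48.6 and 41.0 under negative DIF, against 9.04, 14.9 and 5.69 under positive DIF, at least 2.28-fold higher. The mirrored pattern was met by 8 of these probes.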

How the results depend on the processing

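The number of genes depended on how detection was defined. It was 87 with the rule, 55 with the lenient mark, 340 when 2 of 3 negative DIF arrays sufficed, 285 when 1 positive DIF array was allowed, 351 from the shared slide alone, and between 99 (without negative DIF replicate 1) and 264 (without negative DIF replicate 3) with 1 array left out, including 153 without negative DIF replicate 2 and 138 and 190 without positive DIF replicates 2 and 3. All of these but the lenient mark are looser forms of the rule, so they hold the 87 genes by construction. With the lenient mark, 6 of the 87 genes were kept. Without the exclusion for other probes the number of genes was 111. With 2 conditions chosen after seeing the data it was 81, where every negative DIF value had to exceed each positive DIF array's scaled detection limit, and 85, where treatments could not overlap.

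The limma count over all probes was 403. It became 1266 with quantile normalization, 2649 with normexp, 1993 with the filter, 1810 with trend and robust, 3017 with the slide as a random term (estimated correlation within slides -0.22), 0 with it as a fixed term (3234 at an unadjusted p of 0.05) and 0 with the replicate block (7199 unadjusted). Whether the replicate numbers pair the samples is not settled. Same-numbered arrays' deviations from their treatment means correlated at 0.01, 0.04 and 0.22, within the range of -0.35 to 0.32 of the other pairings. Deviations from a mean of 3 arrays depend on one another, so these values cannot decide it. With 1 array left out the count over all probes was between 0 (without negative DIF replicate 1, 6251 unadjusted) and 567 (without negative DIF replicate 3), including 1 without negative DIF replicate 2 and 75, 6 and 2 without positive DIF replicates 1, 2 and 3. The members' count of 32 became 68 with the filter, 80 with the slide as a random term, 0 with it as a fixed term (77 unadjusted) and 0 with the replicate block (93 unadjusted), and was between 0 (without negative DIF replicate 1 or 2) and 26 (without negative DIF replicate 3) with 1 array left out; it was 9 without positive DIF replicate 1 and 1 without positive DIF replicate 2 or 3.

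The normexp correction adds an offset of 50, about the size of the members' signals, to every spot. With it the median fitted difference was 0.51, the within-slide median 0.45, and 9 probes were at least 2-fold. Under the other alternatives the fitted median stayed between 2.26 and 2.46, and between 55 and 78 probes were at least 2-fold. Of the 26 genes named by rule, 21 had a lower at-least fold with normexp by more than their replicate spread. With the shared slide alone 2 were lower by more than that spread (Solyc01g080800 and Solyc03g005240) and 2 higher (Solyc09g098380 and Solyc07g016190). That change sets negative DIF replicate 3 against the mean of the same replicates that give the spread, so it can hardly exceed the spread. The count therefore does not show whether the values depend on the slide. By size, 7 of the named genes were lower by over 1.5 times and 0 were higher by as much. Promoter motifs were not run. Signals near background limit every value.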
